A study of Mus musculus with 10 samples.

Results

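The receptors that carry Wnt signals into a cell were read in mammary epithelial cells (MECs) and mammary gland macrophages of mice with or without *Cebpb* deletion in macrophages. They are 10 genes, chosen by name from the 55487 genes of the count tables: the Frizzled genes *Fzd1*, *Fzd2*, *Fzd4*, *Fzd5*, *Fzd6* and *Fzd7*, the co-receptors *Lrp5* and *Lrp6*, and the receptor tyrosine kinases *Ror1* and *Ror2*. RNA came from 10-wk-old BALB/c females in diestrus. All mice of the deletion design carried the floxed *Cebpb* allele, and those called *Cebpb* ΔM also carried Cre under the *Csf1r* promoter, which is active in macrophages and related myeloid cells, while WT littermates lacked Cre. The genotype is called a C/EBPb knockdown in the sample labels, and it was given to MEC libraries too, although the deletion was aimed at macrophages. The groups were WT MECs (2 libraries), *Cebpb* ΔM MECs (2), WT macrophages (2) and *Cebpb* ΔM macrophages (4). MECs were freed with collagenase and trypsin and kept by removal of cells with other lineage markers, whereas macrophages were selected with antibody to F4/80.

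Frizzled proteins are membrane receptors that bind Wnt ligands through a cysteine-rich domain outside the cell. Where a Frizzled is joined by LRP5 or LRP6, the complex recruits Dishevelled and Axin and lets β-catenin build up and act with TCF/LEF factors on target genes, the canonical branch. ROR1 and ROR2 bind Wnt5a and related ligands and belong to the non-canonical branch, which acts on cell shape, polarity and movement. In the mammary gland, Wnt signals are known for their part in stem cell upkeep, ductal branching and alveolar budding. FZD4 is set apart from the other Frizzled receptors by a second kind of ligand, Norrin, which it binds with the help of TSPAN12 and LRP5 and through which it acts in blood vessels.

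Promoters are shown for 3 members. *Fzd4* is shown because it alone passed the test between the cell types, *Ror1* because it had the smallest *P* between the genotypes, and *Fzd1* because its promoter alone held the C/EBP core searched for. The sequences are the 250 bases before the RefSeq start on GRCm38.p6, 5′ to 3′ on the strand of the gene, with the C/EBP core in capitals. They lie at chr7:89404116-89404365 (plus strand, *Fzd4*), chr4:100095541-100095790 (plus strand, *Ror1*) and chr5:4758217-4758466 (minus strand, *Fzd1*).
Fzd4: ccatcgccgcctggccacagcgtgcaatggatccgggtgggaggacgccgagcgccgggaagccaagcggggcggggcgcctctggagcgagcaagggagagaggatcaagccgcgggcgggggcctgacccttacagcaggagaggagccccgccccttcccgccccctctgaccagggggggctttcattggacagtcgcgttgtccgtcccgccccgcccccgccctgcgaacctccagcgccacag
Ror1: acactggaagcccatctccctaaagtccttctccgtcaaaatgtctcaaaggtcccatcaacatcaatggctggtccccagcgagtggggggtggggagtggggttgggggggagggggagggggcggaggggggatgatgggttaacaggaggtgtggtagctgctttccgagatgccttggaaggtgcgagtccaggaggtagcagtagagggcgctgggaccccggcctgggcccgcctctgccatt
Fzd1: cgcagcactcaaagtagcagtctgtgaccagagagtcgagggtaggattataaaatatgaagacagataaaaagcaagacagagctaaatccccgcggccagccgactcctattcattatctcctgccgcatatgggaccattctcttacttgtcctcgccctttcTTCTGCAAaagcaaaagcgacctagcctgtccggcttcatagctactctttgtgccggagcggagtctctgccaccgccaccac
The C/EBP core was searched as TTNNGNAA and the TCF/LEF core as CTTTGAT, on both strands, from 250 bases before to 50 bases after the start. The C/EBP core occurred in 40.7% of the 32851 promoters of the table and in 1 of the 6 member promoters matched there (*Fzd1*, *Fzd4*, *Fzd5*, *Fzd7*, *Ror1* and *Ror2*). The match in *Fzd1* began 84 bases before the start and read TTCTGCAA. The TCF/LEF core occurred in 3.73% of all promoters and in 0 of the 6. The whole windows searched, from 250 bases before to 50 bases after the start, differ in base composition. G and C made up 72.7% of the *Fzd4* window, 62.3% of that of *Ror1* and 54.0% of that of *Fzd1*. A match of letters is a description of the sequence, and no binding was measured here.

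The deposited values were counts of read pairs per gene, with 25310926 to 27008166 counts in a MEC library and 16935000 to 20174722 in a macrophage library. Levels are given as CPM, counts scaled to library size with the TMM factors of edgeR, and a level per length is this value divided by the exon length of the gene in kb. The floor of 3 counts corresponds to 0.111 to 0.119 CPM in MECs and 0.149 to 0.177 CPM in macrophages, and it covers counting error only. Summed over 8 macrophage markers such as *Adgre1* (F4/80), *Csf1r* and *Lyz2*, the level was 7265 to 13152 CPM in macrophage libraries and 21.9 to 30.0 CPM in MECs. The macrophage libraries also held 5346 to 10608 CPM of 8 luminal epithelial markers (26841 to 35594 in MECs) and 733 to 3129 CPM of 8 basal epithelial markers (6134 to 7581 in MECs). The level of 6 fibroblast markers was 3244 to 7599 CPM in macrophage libraries and 5269 to 6432 CPM in MECs, and that of 6 lymphocyte markers was 4.86 to 23.0 CPM in macrophage libraries and at most 2.11 CPM in MECs. *Cebpb* itself was counted 13 and 15 in the macrophage libraries labelled WT 4 and 5, and 16, 13, 5 and 4 in those labelled *Cebpb* ΔM 4, 5, 6 and 7. The targeted gene therefore did not separate the macrophage genotypes, and these libraries are named by their labels. In MECs, where no deletion was intended, *Cebpb* was counted 25 and 28 in WT 1 and 3, and 69 and 42 in *Cebpb* ΔM 1 and 3. The labels do not say that libraries came from separate animals, so *P*-values measure the spread between these libraries. In bulk RNA, fewer cells of a type and less RNA per cell cannot be told apart.

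Among the receptors of WT MECs, *Fzd6* was the most abundant per length. *Fzd6* encodes a Frizzled known for its role in planar polarity. Its level per length was 5.62 and 6.58 CPM per kb in WT 1 and 3, and 4.96 and 8.0 CPM per kb in *Cebpb* ΔM 1 and 3. In neither genotype did its library values overlap those of the next member in the order. Behind it, *Fzd4*, *Fzd1* and *Lrp6* lay between 2.0 and 2.01 CPM per kb on average in WT MECs and did not differ beyond their spread. *Fzd7*, a Frizzled known from basal cells of the gland, followed at 1.61 ± 0.299 CPM per kb (SD, n = 2), its values overlapping those of *Ror1* at 1.54 ± 0.159 CPM per kb (SD, n = 2). The lower end was formed by *Fzd5*, *Lrp5*, *Fzd2* and *Ror2*, from 1.20 down to 0.708 CPM per kb, where each member overlapped the next. In *Cebpb* ΔM MECs, *Ror1* stood in second place at 3.20 ± 0.838 CPM per kb (SD, n = 2), although its values overlapped those of *Lrp6* below it.

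**Figure D1:**
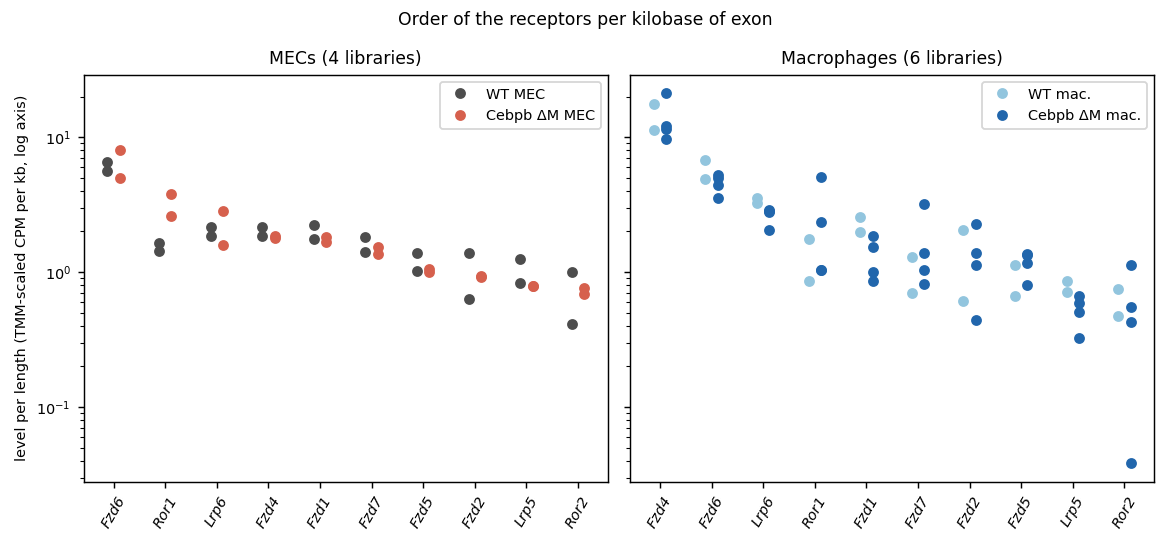
Levels of the 10 receptors per kilobase of exon (TMM-scaled CPM per kb, log axis) in MECs (left) and macrophages (right), ordered by the mean over all libraries of the cell type, each point 1 library. *Fzd6* leads in MECs, *Fzd4* leads in macrophages, and 1 *Ror2* value in macrophages lies far below the rest at 0.0384.

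In macrophage libraries the order was led by *Fzd4*, followed by *Fzd6* and then *Lrp6* under both labels. The *Fzd4* level per length was 11.2 and 17.7 CPM per kb in the libraries labelled WT 4 and 5, and 9.70, 12.1, 21.2 and 11.4 CPM per kb in those labelled *Cebpb* ΔM 4, 5, 6 and 7. None of these values overlapped *Fzd6*, which ranged from 3.54 to 6.74 CPM per kb in the same 6 libraries. *Lrp6* lay between 2.04 and 3.52 CPM per kb. Of the members below it, *Lrp5* and *Ror2* were the lowest under both labels, at 0.325 to 0.865 and 0.0384 to 1.13 CPM per kb, and in the *Cebpb* ΔM libraries every member from *Lrp6* down overlapped its neighbour.

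The composition of the 6 Frizzled members therefore differed between the cell types. Other Frizzled genes were left out, among them *Fzd3*, at 12.3 to 20.7 CPM in MECs and 1.95 to 14.3 CPM in macrophage libraries. *Fzd4* made up 14.1% ± 1.56 (SD, n = 4) of the summed level per length of the 6 Frizzled members in MECs and 56.2% ± 10.2 (SD, n = 6) in macrophage libraries. *Fzd6* made up 45.8% ± 6.97 (SD, n = 4) in MECs and 20.6% ± 4.38 (SD, n = 6) in macrophage libraries. The library shares of the cell types did not overlap for either gene: *Fzd4* took 11.9% to 15.6% in MECs and 45.2% to 70.5% in macrophage libraries, and *Fzd6* took 38.5% to 53.5% and 15.8% to 27.6%. The sum of the 6 Frizzled levels itself was 11.9 to 15 CPM per kb in MECs and 20.3 to 30.1 CPM per kb in macrophage libraries. Shares of a sum are tied to each other, so a higher share of *Fzd4* lowers the others.

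**Figure D2:**
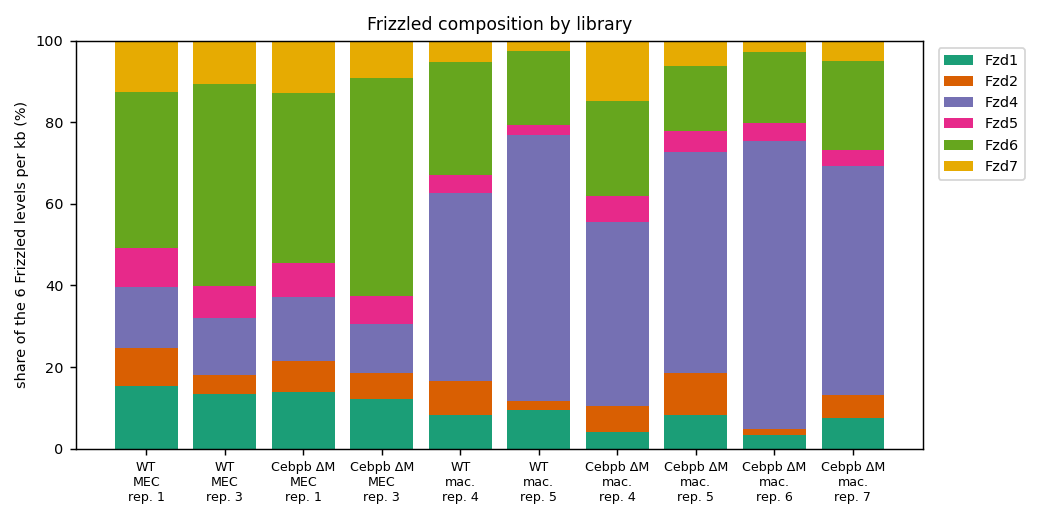
Share of each of the 6 Frizzled genes in their summed level per length (percent, 1 bar per library, replicate numbers from the labels). *Fzd6* takes 38.5% to 53.5% of each MEC bar, and *Fzd4* takes 45.2% to 70.5% of each macrophage bar.

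Between the cell types, *Fzd4* was the only member called by edgeR's quasi-likelihood (QL) test, and it was called in both genotypes. *Fzd4* (ENSMUSG00000049791, chr7:89404355-89413134, plus strand) was counted 359 and 306 in WT MECs 1 and 3, and 307 and 309 in *Cebpb* ΔM MECs 1 and 3. In macrophage libraries it was counted 1506 and 2497 in those labelled WT 4 and 5, and 1280, 1676, 2628 and 1275 in those labelled *Cebpb* ΔM 4, 5, 6 and 7. Every macrophage library lay above every MEC library. The level was 13.5 ± 1.48 CPM (SD, n = 2) in WT MECs and 97.2 ± 30.6 CPM (SD, n = 2) in WT macrophages, a log2 fold change of 2.85 (SE 0.37, edgeR adjusted *P* = 0.00029). In *Cebpb* ΔM it was 12.2 ± 0.338 CPM (SD, n = 2) in MECs and 91.5 ± 34.8 CPM (SD, n = 4) in macrophages, a log2 fold change of 2.90 (SE 0.35, edgeR adjusted *P* = 0.000107). At this threshold, 25.5% of the 18323 genes tested were called between the WT cell types and 33.7% between the *Cebpb* ΔM cell types, so 1 of 10 members called was a smaller share than among all genes. Of the same genes, 14.8% were called higher in macrophages in WT and 18.9% in *Cebpb* ΔM. Cell type, isolation and count table changed together in this comparison and cannot be told apart.

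Markers of blood vessels moved with *Fzd4*. All 6 endothelial markers (*Pecam1*, *Cdh5*, *Kdr*, *Tie1*, *Cldn5* and *Emcn*) were called higher in macrophage libraries than in MECs in both genotypes, as were all 5 pericyte markers. The endothelial markers summed to 79.1 to 113 CPM in MECs and to 849 to 1825 CPM in macrophage libraries. The pericyte markers summed to 27.6 to 53.8 CPM and 297 to 636 CPM. Within the macrophage libraries, the one labelled *Cebpb* ΔM 6 was highest in *Fzd4* (143 CPM) and in the endothelial sum (1825 CPM), and the one labelled *Cebpb* ΔM 4 was lowest in both (65.2 and 849 CPM). The library labelled WT 5 was second in *Fzd4* (119 CPM) but lay behind *Cebpb* ΔM 5 in the endothelial sum (1265 and 1454 CPM). Of 5 adipocyte markers, *Fabp4* was at 30.4 to 33.1 CPM in MECs and 400 to 1098 CPM in macrophage libraries. *Adipoq*, *Cidec*, *Lep* and *Plin1* reached at most 3.80, 3.47, 2.55 and 1.30 CPM in any library. Of the 3 adipocyte markers tested, 2 (*Fabp4* and *Adipoq*) were called higher in macrophage libraries in WT and 3 in *Cebpb* ΔM. Calls in this direction were thus not limited to markers of blood vessels. The part of endothelial or other cells in the *Fzd4* difference was not tested.

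**Figure D3:**
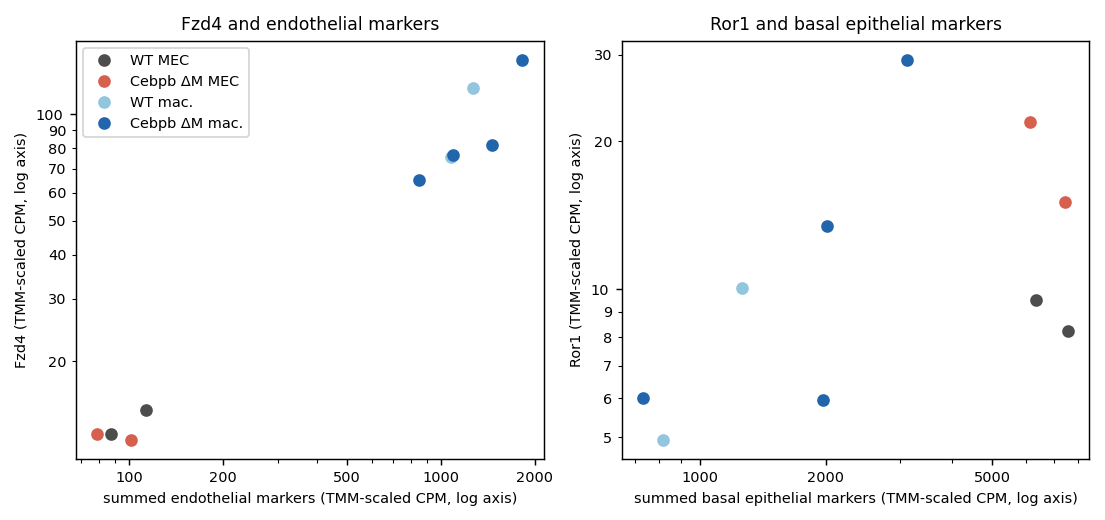
*Fzd4* against summed endothelial markers (left) and *Ror1* against summed basal epithelial markers (right), TMM-scaled CPM on log axes, each point 1 library coloured by group. In the left plot MECs lie at 12 to 14.5 CPM of *Fzd4* and macrophage libraries at 65.2 to 143 CPM, while in the right plot the highest *Ror1* value (29.3 CPM) belongs to the macrophage library with the highest basal sum.

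Genes that work with FZD4 were looked at beside it, chosen for this role after values had been seen. *Tspan12*, which helps FZD4 take up Norrin, was higher in macrophage libraries in WT (log2 fold change 1.09, edgeR adjusted *P* = 0.00586) and in *Cebpb* ΔM (0.70, adjusted *P* = 0.0226). *Ndp*, which encodes Norrin, was uneven, at 2.07 to 4.77 CPM in MECs and 0.240 to 14.7 CPM in macrophage libraries, and was not called (adjusted *P* = 0.696 in WT and 0.481 in *Cebpb* ΔM). *Lgr5*, a receptor for R-spondins that marks stem cells in several epithelia and was picked out in the same way, was lower in macrophage libraries (log2 fold change −1.93 in WT and −2.35 in *Cebpb* ΔM, edgeR adjusted *P* = 0.0118 and 0.000708).

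Among the co-receptors, *Lrp6* was at 29.2 and 25.4 CPM in WT MECs and at 44.4 and 48.2 CPM in the macrophage libraries labelled WT, with no overlap. Its log2 fold change was 0.76 (SE 0.28, edgeR adjusted *P* = 0.0723), so it was not called at 0.05, and its adjusted *P* fell below 0.05 when either *Cebpb* ΔM MEC library was left out of the fit (adjusted *P* = 0.0354 and 0.0365), neither of which belongs to the WT groups compared. In *Cebpb* ΔM the *Lrp6* values overlapped, at 21.7 and 38.6 CPM in MECs and 27.9 to 39.5 CPM in macrophage libraries, and the log2 fold change was 0.26 (SE 0.25, adjusted *P* = 0.460). *Lrp5*, the closest relative of *Lrp6*, had log2 fold changes of −0.39 in WT and −0.60 in *Cebpb* ΔM and was not called (adjusted *P* = 0.484 and 0.177). The sign of *Lrp6* in *Cebpb* ΔM was not stable, at −0.10 without *Cebpb* ΔM MEC 1. Per length, *Lrp6* exceeded *Lrp5* by 1.72 to 3.60 times in MECs and by 4.07 to 6.27 times in macrophage libraries, ranges that do not overlap and that are given with no test because the ratio was chosen after values were seen.

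The remaining 7 members differed between the cell types by −0.70 to 0.40 on the log2 scale in WT and by −0.51 to 0.49 in *Cebpb* ΔM, and none was called. The intervals were wide for most of them. For *Fzd6* the 95% interval ran from −0.72 to 0.57 in WT, inside a 2-fold change either way, whereas for *Ror2* it ran from −2.33 to 1.91. *Ror2* had the lowest mean CPM of the members in every group. It was counted 40 and 67 in the macrophage libraries labelled WT 4 and 5, and 46, 98, 3 and 30 in those labelled *Cebpb* ΔM 4 to 7. The lowest of these counts sits at the floor of 3 counts. In MECs it was counted 43 and 105 in WT 1 and 3, and 79 and 75 in *Cebpb* ΔM 1 and 3.

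**Figure D4:**
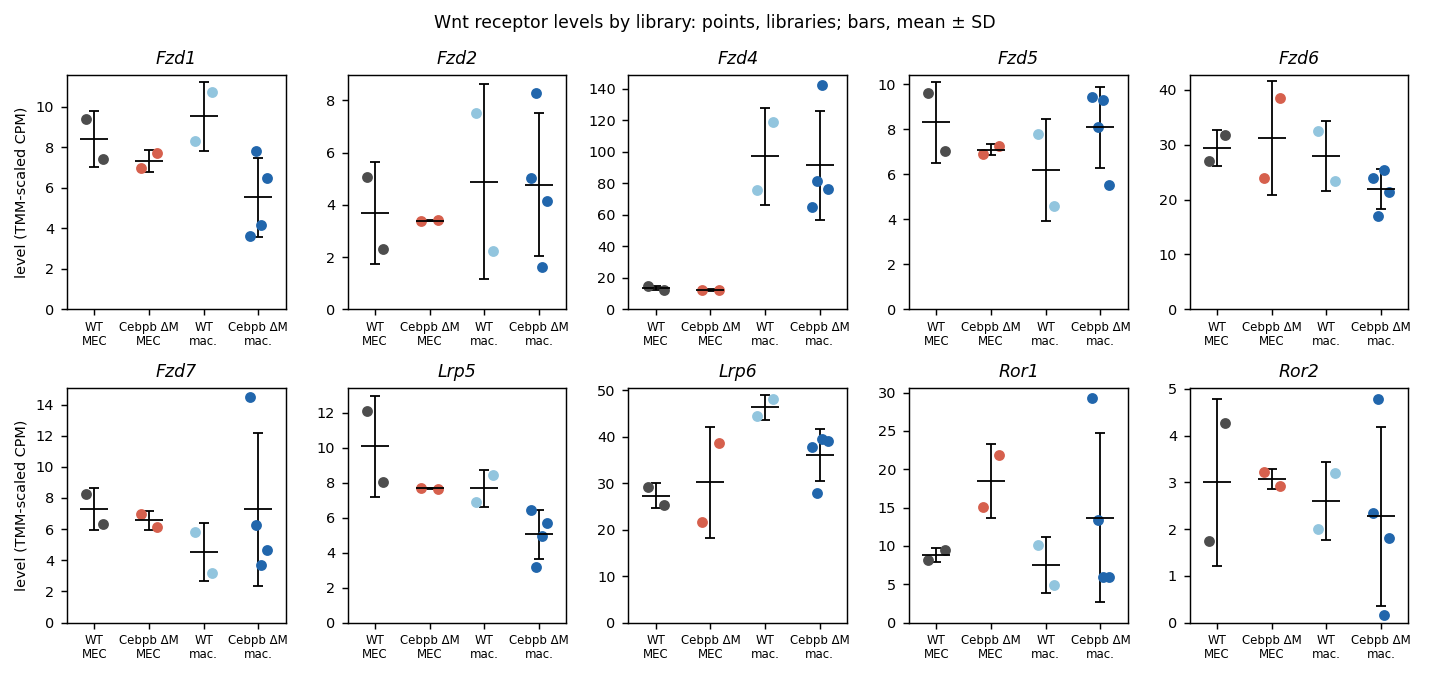
Level of each receptor (TMM-scaled CPM, linear axis from 0) in the 4 groups, with 1 point per library and mean ± SD as bars. *Fzd4* is at 12 to 14.5 CPM in MECs and 65.2 to 143 CPM in macrophages, and *Ror1* is at 8.21 and 9.51 CPM in WT MECs against 15 and 21.9 CPM in *Cebpb* ΔM MECs.

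The next question was whether deletion of *Cebpb* in macrophages altered the receptors of the adjacent epithelium. Of the 10 members, 0 were called between *Cebpb* ΔM and WT MECs by the QL test, where 0.051% of the 15698 genes tested were called. The likelihood ratio test and DESeq2 also called 0 members, and 1 member, *Ror1*, had an unadjusted *P* under 0.05. *Ror1* (ENSMUSG00000035305, chr4:100095791-100444765, plus strand) was counted 203 and 234 in WT MECs 1 and 3, and 370 and 563 in *Cebpb* ΔM MECs 1 and 3. Both *Cebpb* ΔM libraries lay above both WT libraries. The level was 8.86 ± 0.914 CPM (SD, n = 2) in WT and 18.5 ± 4.83 CPM (SD, n = 2) in *Cebpb* ΔM, a log2 fold change of 1.08 (SE 0.29, 95% interval 0.44 to 1.72). By the edgeR QL test its unadjusted *P* was 0.00335 and its adjusted *P* was 0.273. Over the alternatives the adjusted *P* of *Ror1* ranged from 0.0450 to 1.0, and it passed 0.05 only with *Cebpb* ΔM MEC 1 left out, while the log2 fold change stayed between 0.76 and 1.35. The replicate number as a block gave an adjusted *P* of 0.0603. Markers of the basal layer did not move with it as a list: 3 of 8 had positive log2 fold changes, with a median of −0.11, and their sums overlapped (6359 and 7581 CPM in WT, 6134 and 7456 CPM in *Cebpb* ΔM). One of them, *Igfbp2*, picked out after its values were seen, had a log2 fold change of 1.46 (QL test adjusted *P* = 0.0991).

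The other 9 members had log2 fold changes of −0.37 to 0.17 in MECs, and the median over all 10 was −0.11, where that of all genes tested was −0.01. For 6 of the 10 members the 95% interval of the genotype difference lay inside a 2-fold change either way, and these were *Fzd1*, *Fzd4*, *Fzd5*, *Fzd6*, *Fzd7* and *Lrp6*. *Fzd4* was at 14.5 and 12.4 CPM in WT MECs and at 12.5 and 12 CPM in *Cebpb* ΔM. *Lrp5* was at 12.1 and 8.04 CPM in WT and at 7.68 and 7.65 CPM in *Cebpb* ΔM, without overlap, with a log2 fold change of −0.37 (SE 0.30, edgeR adjusted *P* = 1.0). Its log2 fold change was −0.06 without WT 1, the higher of the WT libraries. Counting members without overlap between the genotypes gives 2 of 10, *Ror1* and *Lrp5*, where 28.2% of all genes tested had no overlap. *Fzd6* and *Lrp6* shared a pattern among the libraries, since both were highest in *Cebpb* ΔM 3 (38.5 and 38.6 CPM) and lowest in *Cebpb* ΔM 1 (23.9 and 21.7 CPM), with the WT libraries between.

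**Figure D5:**
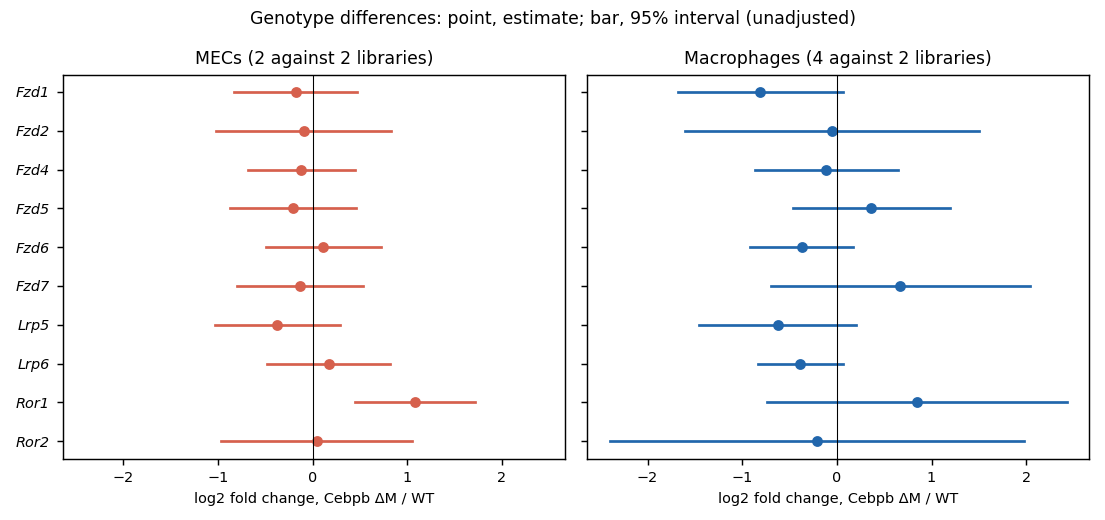
Log2 fold change of each receptor between *Cebpb* ΔM and WT in MECs (left) and macrophages (right), with unadjusted 95% intervals from the QL fit. Only the interval of *Ror1* in MECs (0.44 to 1.72) leaves out 0, and intervals are wider in macrophages than in MECs for every member but *Fzd6* and *Lrp6*.

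In macrophages, 0 of the 10 members were called between the libraries labelled *Cebpb* ΔM and WT, where 0% of the 17772 genes tested were called by the QL test. At an unadjusted *P* under 0.05 there were 0 members and 1534 genes, and the likelihood ratio test and DESeq2 called 138 and 201 genes, of which 0 were members. *Fzd1*, *Lrp5* and *Lrp6* lay lower in each of the 4 libraries labelled *Cebpb* ΔM than in both labelled WT, so that 3 of 10 members had no overlap, where 18.5% of all genes tested had none. The median log2 fold change of the members was −0.16, where that of all genes tested was 0.00. *Fzd1* (ENSMUSG00000044674, chr5:4753839-4758035, minus strand) was at 8.33 and 10.7 CPM in the libraries labelled WT 4 and 5, and at 3.62, 7.79, 4.18 and 6.49 CPM in those labelled *Cebpb* ΔM 4, 5, 6 and 7. Its log2 fold change was −0.81 (SE 0.38, edgeR adjusted *P* = 0.597), with a range of −1.02 to −0.61 over the alternatives. *Lrp5* was at 6.92 and 8.43 CPM under WT and at 6.42, 3.17, 4.94 and 5.71 CPM under *Cebpb* ΔM, with a log2 fold change of −0.63 (SE 0.36, adjusted *P* = 0.672). *Lrp6* was at 37.8, 27.9, 39.5 and 39.0 CPM under *Cebpb* ΔM, with a log2 fold change of −0.39 (SE 0.19, adjusted *P* = 0.624). The sum of the luminal epithelial markers was also lower in every library labelled *Cebpb* ΔM (5346 to 7550 CPM) than in those labelled WT (10090 and 10608 CPM), while the sum of the macrophage markers was higher (8494 to 13152 against 7265 and 7698 CPM). Of the 8 luminal markers, 1 (*Elf5*) had a positive log2 fold change, and 0 were called. With the mean log2 level of luminal and basal markers together as a covariate, the *Fzd1* log2 fold change was −0.81 (edgeR adjusted *P* = 0.514). Between the labels the luminal and basal lists moved in opposite directions, with median log2 fold changes of −0.65 and 0.91. This covariate therefore could not adjust for the luminal difference alone, and the part of luminal cells in these values was not tested.

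*Ror1* and *Fzd7* stood out in 1 macrophage library. *Ror1* was at 10.1 and 4.95 CPM in the libraries labelled WT 4 and 5, and at 29.3, 13.4, 5.97 and 6.01 CPM in those labelled *Cebpb* ΔM 4, 5, 6 and 7. *Fzd7* was at 5.82 and 3.19 CPM under WT and at 14.5, 6.28, 3.69 and 4.69 CPM under *Cebpb* ΔM. For both genes the highest library was *Cebpb* ΔM 4, and the genotypes overlapped. That library also held the highest sum of basal epithelial markers, at 3129 CPM against 733 to 2012 CPM in the other 5. By this sum the order was not shared by all libraries. *Cebpb* ΔM 6, with a basal sum of 1968 CPM, and *Cebpb* ΔM 7, with 733 CPM, had nearly the same *Ror1* level. Both lay below WT 4 in *Ror1*, where the basal sum was 1261 CPM. The sum is weighted by its most abundant genes, and *Acta2* alone was at 1126 CPM in *Cebpb* ΔM 6. Of the 8 markers, *Krt5*, *Trp63* and *Igfbp2* were lower in *Cebpb* ΔM 6 than in WT 4, as *Ror1* was. *Krt14*, *Krt17*, *Acta2*, *Myh11* and *Oxtr* were higher there. All 8 basal markers had positive log2 fold changes between the labels, with a median of 0.91 and 0 called. *Trp63*, a transcription factor of basal epithelium picked out after its values were seen, was at 66.4 CPM in *Cebpb* ΔM 4. It was at 3.60 to 31.2 CPM in the other macrophage libraries. The log2 fold change was 0.84 (SE 0.69, edgeR adjusted *P* = 0.795) for *Ror1* and 0.67 (SE 0.59, adjusted *P* = 0.816) for *Fzd7*. Without *Cebpb* ΔM 4 it was 0.15 and 0.09. With the covariate of luminal and basal markers together, the log2 fold changes were 0.63 (adjusted *P* = 0.557) and 0.57 (adjusted *P* = 0.694). With only replicates 4 and 5 of both labels they were 1.49 (adjusted *P* = 0.548) and 1.19 (adjusted *P* = 0.670). The part of basal epithelial cells in these values was not tested.

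The other Frizzled members showed no shift common to the libraries of a label. *Fzd4* differed by −0.11 (SE 0.33), and its 95% interval, −0.87 to 0.64, lay inside a 2-fold change either way, as did those of *Fzd6* and *Lrp6*. *Fzd5*, known from intestinal and ocular epithelium, was at 7.77 and 4.57 CPM under WT and at 9.42, 8.08, 9.28 and 5.53 CPM under *Cebpb* ΔM (log2 fold change 0.36, SE 0.36). *Fzd2*, another Frizzled that can take part in non-canonical signaling, ranged from 1.63 to 8.28 CPM over the 6 libraries (−0.05, SE 0.68). *Fzd6* was at 32.5 and 23.4 CPM under WT and at 23.9, 17.0, 25.4 and 21.4 CPM under *Cebpb* ΔM (−0.37, SE 0.24).

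Whether the genotype difference itself differed between macrophages and MECs was put to an interaction test in the fit of the 10 libraries. Of the members, 0 were called and 0 had an unadjusted *P* under 0.05, where 0% of the 18323 genes tested were called by the QL test, 951 had an unadjusted *P* under 0.05, and the likelihood ratio test called 53 genes and 0 members. The interaction for *Ror1* was −0.19 on the log2 scale (SE 0.89, 95% interval −2.16 to 1.78), so its positive differences in the cell types were not shown to be unlike. The interval of no member lay inside a 2-fold change either way, and the data could not show that any receptor responded alike in the cell types.

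The rest of the pathway was read from lists of other genes by role. By the QL test 0 of these genes were called between the genotypes in either cell type or in the interaction. Over all genes tested it called 0.051% in MECs, and 0% in macrophages and in the interaction. An absence of calls in the lists therefore does not show an unchanged pathway. With the likelihood ratio test, the paper reported *Wnt4*, *Wnt10a* and *Nkd1* as significantly raised and *Wnt5a* and *Dkk2* as lowered in *Cebpb* ΔM MECs. In *Cebpb* ΔM macrophages it listed *Wnt5a*, *Wnt10b*, *Wnt4* and *Wnt2* among the lowered genes. It cautioned that phagocytosed epithelial cells might be their source. In sorted basal cells, not sequenced here, it reported lower *Ctnnb1*, *Axin2* and *Dkk1* by qRT-PCR. For each list, the genes named are those with the smallest *P*. Among other receptors, 5 of 8 listed genes were tested in MECs and all 5 had positive log2 fold changes, with a median of 0.36 beside −0.01 for all genes. *Fzd3*, a Frizzled of axon guidance and polarity, had a log2 fold change of 0.60 (adjusted *P* = 0.814) and *Ptk7*, a kinase-like co-receptor, one of 0.36 (adjusted *P* = 1.0). In macrophages 3 of the 6 tested were positive (median 0.03), led by *Fzd8* at 2.36 (adjusted *P* = 0.680) and *Lrp4* at 0.61 (adjusted *P* = 0.901). *Fzd8* and *Fzd10* led the interaction (3.72 and 0.85, adjusted *P* = 0.954 and 1.0), though neither exceeded 2.39 CPM in any library.

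Genes that set how much receptor stays at the surface gave 7 of 11 positive log2 fold changes in MECs (median 0.05) and 4 of 13 in macrophages (median −0.07). *Lgr6*, which binds R-spondins, had a log2 fold change of 0.79 in MECs (adjusted *P* = 0.255) and of 1.13 in macrophages (adjusted *P* = 0.714). *Rnf43*, a ligase that removes Frizzled from the membrane, had one of −0.61 in MECs (adjusted *P* = 0.988), and *Tspan12* one of −0.24 in macrophages (adjusted *P* = 0.810). *Tspan12* and *Lgr4* led the interaction (−0.40 and 0.49, adjusted *P* = 1.0 for both).

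Of 24 ligand genes, 12 were tested in MECs with 8 positive (median 0.19), and 14 in macrophages with 7 positive (median 0.01). *Wnt10a* and *Rspo1* had the smallest *P* in MECs, with log2 fold changes of 1.07 and 1.0 (adjusted *P* = 0.169 and 0.291). *Wnt10b* and *Wnt2b* led in macrophages, at −2.72 and 2.86 (adjusted *P* = 0.452 and 0.502), where neither exceeded 3.14 CPM in any library. *Wnt10b* and *Wnt4* led the interaction (−5.80 and −1.95, adjusted *P* = 0.730 and 0.833), and *Wnt10b*, at 0 to 0.233 CPM in MECs, gives a fitted value there that depends on the prior count. *Wnt5a*, the ligand best known for ROR receptors and looked at for that role after values had been seen, was at 106 and 95.8 CPM in WT MECs and at 37.6 and 66.5 CPM in *Cebpb* ΔM MECs, both below the WT values, with a log2 fold change of −0.93 (SE 0.27, edgeR adjusted *P* = 0.361). In macrophages it ranged from 8.57 to 151 CPM and differed by −1.67 (SE 0.64, adjusted *P* = 0.537).

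Secreted antagonists gave 4 of 9 positive log2 fold changes in each cell type (medians −0.08 in MECs and −0.12 in macrophages), led by *Sfrp5* and *Dkk2* in MECs (0.66 and −0.91, adjusted *P* = 0.818 and 0.884) and by *Dkk2* and *Dkk3* in macrophages (−0.78 and 0.46, adjusted *P* = 0.727 and 0.792). *Dkk3* and *Sfrp5* led the interaction (0.88 and −0.84, adjusted *P* = 0.980 and 1.0). The canonical transducers lay close to 0, with a median of −0.07 in MECs and −0.14 in macrophages over 17 genes. Their leading genes were *Csnk1a1* and *Ctnnb1* (β-catenin) in MECs (0.43 and 0.32, adjusted *P* = 1.0 for both), *Csnk1g1* and *Csnk1g2*, kinases that act on LRP6, in macrophages (−0.55 and −0.44, adjusted *P* = 0.521 and 0.612), and *Dvl3* and *Csnk1a1* in the interaction (−0.55 and −0.44, adjusted *P* = 0.990 and 1.0). Polarity and non-canonical genes gave 4 of 9 positive log2 fold changes in MECs (median −0.03), led by *Celsr1* and *Prickle2* (−0.35 and −0.25, adjusted *P* = 1.0 for both), and 6 of 11 in macrophages (median 0.02), led by *Celsr1* and *Scrib* (−0.61 and −0.49, adjusted *P* = 0.597 and 0.628). *Celsr3* and *Scrib* led their interaction (−1.76 and −0.50, adjusted *P* = 0.990 and 0.997). Among targets, 5 of 6 tested were positive in MECs (median 0.17), led by *Nkd1*, a feedback antagonist that binds Dishevelled, at 1.94 (adjusted *P* = 0.0878), and *Tnfrsf19* at 0.25 (adjusted *P* = 1.0). In macrophages 2 of 7 targets were positive (median −0.12), led by *Apcdd1* at −1.03 (adjusted *P* = 0.709) and *Nkd1* at 0.60 (adjusted *P* = 0.795), and *Nkd1* and *Apcdd1* also led the interaction (−1.30 and −1.26, adjusted *P* = 0.982 and 1.0).

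Between the cell types, genes of these lists passed the test in both directions, beside 25.5% of all genes tested in WT and 33.7% in *Cebpb* ΔM. In WT, 1 of 7 other receptors was lower in macrophage libraries, 1 of 13 surface regulators was higher and 2 were lower, and 2 of 14 ligands were higher and 4 lower. Of the rest, 1 of 9 antagonists was higher and 1 lower, 3 of 11 polarity genes were higher, and 0 of 17 transducers and 0 of 7 targets were called. In WT the share called was above that of all genes for ligands. It was close to that share for polarity genes, surface regulators and antagonists, and below it for the other lists. In *Cebpb* ΔM, 2 of 7 other receptors were lower, 1 of 13 surface regulators was higher and 2 were lower, and 1 of 14 ligands was higher and 4 were lower. There 1 of 9 antagonists was higher and 1 lower, 3 of 11 polarity genes were higher, 1 of 17 transducers was higher and 1 lower, and 1 of 7 targets was lower. In *Cebpb* ΔM the share called was close to that of all genes for ligands and below it for the other lists. These counts are a description of the lists.

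The genes whose pattern over the 10 libraries was most like that of each member were found by the root-mean-square difference of log2 CPM, each gene centred on its own mean, among 18323 genes. *Rapgef5* was nearest to *Fzd4* (0.15), *Gins2* to *Fzd6* (0.13), *Sympk* to *Fzd5* (0.14), *Patl1* to *Lrp6* (0.14) and *Phc1* to *Lrp5* (0.14). Neighbours lay farther off for *Fzd1* (*Cryz*, 0.20), *Fzd7* (*Sox8*, 0.23), *Ror1* (*Fam185a*, 0.25), *Fzd2* (*Gm38037*, 0.35) and *Ror2* (*Acot4*, 0.46). Among the members themselves, *Fzd6* and *Lrp5* were nearest to each other (0.39), *Ror1* was nearest to *Fzd7* (0.47), and *Fzd4* stood farthest from any other member, at 1.20 from *Lrp6*. These distances share libraries and depth and are given as a description only.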

How the data were processed

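RNA of MECs and of F4/80-selected mammary gland macrophages was sequenced as low-input paired-end libraries. The authors trimmed reads with Trimmomatic, mapped them to GRCm38 with HISAT2, and used featureCounts (version 1.6.2) with the gene models of Ensembl release 100. Pairs had to map at both ends, on the reverse strand, with quality 10 or more. The deposited files hold these pairs as raw counts, and every sample column was used (0 left out). Member positions are those of the count tables.

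Genes of at least 300 nt with over 1 CPM in at least 2 of the libraries fitted were kept. MECs and macrophages were fitted separately, and all 10 libraries together for the interaction and the cell types, by the quasi-likelihood test of edgeR (version 4.0.16; R version 4.3.3) after TMM scaling. *P*-values were adjusted by Benjamini–Hochberg over all genes tested, with a threshold of 0.05. The study's methods name the likelihood ratio test, run here as an alternative beside DESeq2 (version 1.42.0), RLE scaling, other filters, the replicate number as a block, 1 fit of all libraries and each library left out. The fits were tested on simulated counts. Fold changes used a prior count of 0.125 and log2 CPM a prior count of 2. Tables and plots used pandas (version 2.3.3), numpy (version 2.4.6) and matplotlib (version 3.10.9).

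The members, the gene lists and the tests were chosen with earlier results of these data known. The genes named are the members, *Cebpb*, in each list and comparison of genotypes the 2 genes with the smallest *P* (or up to 4 called), and each member's nearest gene. Others are marked as chosen after values were seen. Of the members, all 10 passed every filter. Opposite-strand genes overlap *Fzd5* (*Gm38058*, 17.8% of its exon bases) and *Fzd6* (*Gm26704*, 3.16%), with at most 29 counts in a library. No stretch of 50 bases in a member's GENCODE transcripts was shared with another member.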

Additional observations from a re-analysis of the deposited data

Results flagged for a closer look

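*Lrp6* in the macrophage library labelled *Cebpb* ΔM 5 was at 27.9 CPM, far from the other 3 libraries of its group, which lay at 37.8 to 39.5 CPM. The gap to the nearest of them was 0.857 of the range of the group, above Dixon's 95% critical value for 4 libraries. This check could be made in 1 group only and was made for the 10 members, of which chance flags about 1 in 20. Without this library the log2 fold change of *Lrp6* between the macrophage genotypes was −0.28 (QL test adjusted *P* = 0.872).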

How the results depend on the processing

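*Fzd4* was called between the cell types in both genotypes under every alternative run, with log2 fold changes of 2.53 to 3.18 in WT and 2.61 to 3.04 in *Cebpb* ΔM. Among single results, 668 of the values kept direction and side of the threshold or moved by less than the replicate spread, 45 turned direction, 3 came under the threshold (*Ror1* in MECs without *Cebpb* ΔM 1, and *Lrp6* between WT cell types without either *Cebpb* ΔM MEC library) and 4 levels moved by more than their spread without TMM scaling.

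The number of genes called depended on the test. For the MEC genotypes, against 8 genes, the likelihood ratio test called 179, DESeq2 161, no filter 67, filterByExpr 4, 1 fit of all libraries 0, and leaving out a library 2 (without WT 3) to 337 (without *Cebpb* ΔM 3), with 98 without WT 1 and 42 without *Cebpb* ΔM 1. The members called were 0 to 1 with a library left out. For the macrophage genotypes, against 0 genes, the likelihood ratio test called 138, DESeq2 201 and the epithelial covariate 1. For the interaction, against 0, the likelihood ratio test called 53 and leaving out a library 0 to 1 (1 without WT MEC 3). With a library left out, 2456 to 4846 genes and 1 to 2 members were called between the WT cell types (4664 and 1 with all), with 2733 genes without WT MEC 1, 2456 without WT MEC 3 and 3041 without WT macrophage 5. Between the *Cebpb* ΔM cell types it was 3496 (without *Cebpb* ΔM MEC 1) to 6556 genes (6174 with all). The cause was not tested.

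The replicate number as a block changed no call of a member. Deviations of same-numbered libraries from their group means correlated with r = 0.101 in MECs and with r = 0.119 and −0.0772 for macrophage replicates 4 and 5, so the libraries were taken to share only a number. With the block, 205 genes were called in MECs, 12 in macrophages and 1 in the interaction. The block turned *Fzd2* (0.62) and *Ror2* (0.38) in macrophages and *Fzd4* (−0.24), *Ror1* (0.45) and *Ror2* (0.25) in the interaction. No paired analysis was possible for the cell types because MEC and macrophage libraries share no replicate number. In macrophages *Fzd2* also turned with the covariate (0.0045) and with replicates 4 and 5 only (0.43), as did *Ror2* with the latter (0.44).

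With each library left out, log2 fold changes that turned direction ranged, in MECs, from −0.52 to 0.56 (*Fzd2*), −0.39 to 0.022 (*Fzd5*), −0.31 to 0.44 (*Fzd6*), −0.28 to 0.059 (*Fzd7*), −0.34 to 0.55 (*Lrp6*) and −0.47 to 0.86 (*Ror2*). In macrophages they ranged from −0.67 to 1.07 (*Fzd2*), −0.41 to 0.25 (*Fzd4*) and −0.87 to 0.17 (*Ror2*). In the interaction they ranged from −0.58 to 1.18 (*Fzd2*), −0.27 to 0.38 (*Fzd4*), −0.53 to 0.055 (*Lrp5*), −0.91 to 0.38 (*Ror1*) and −1.0 to 0.29 (*Ror2*). Between WT cell types they ranged from −0.67 to 1.07 (*Fzd2*), −0.28 to 0.19 (*Fzd6*), −0.80 to 0.23 (*Ror1*) and −0.72 to 0.58 (*Ror2*), and between *Cebpb* ΔM cell types from −0.41 to 0.38 (*Fzd7*) and −0.10 to 0.73 (*Lrp6*). None of these was called with all libraries. A group left with 1 library was assumed to vary like the others.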
